A study of Mus musculus with 70 samples.

Results

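The genes described here encode chromatin remodellers and histone modifiers. They are the 51 genes whose symbols belong to the Chd, Smarc, Arid, Kmt2 and Kdm series, chosen by symbol alone from the 34677 genes with a gene-level value. Messenger RNA was sequenced in 70 libraries in 24 groups, from C57BL/6NTac mice and embryos and from C57BL/6 stem cells. The adult brain (P56) gave 57 libraries from 18 regions, the E14.5 embryonic brain gave 9 libraries from 4 regions, and mouse embryonic stem cells (mESC) gave 4 libraries from 2 clones. A brain library held punch biopsies pooled from several mice, except for 1 library of the nucleus accumbens from a single mouse, so the spread between replicates is a spread between pools. The study used fewer mice and embryos than separate pools would need, so libraries of different regions share animals, which the model did not take into account. No treatment or genetic change of the mice is described. The adult mice were males, and the sex of the embryos is not given.

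The cortical groups were the anterior cingulate area (ACA), frontal pole (FRP) and entorhinal area (ENT), with 3 libraries each. The hypothalamic groups were the arcuate nucleus (ARH, 3 libraries), the dorsomedial nucleus (DMH, 4), the lateral area (LHA, 3), the paraventricular nucleus (PVH, 2) and the ventromedial nucleus (VMH, 2). The hindbrain nuclei were the parabrachial nucleus (PB, 3), the nucleus of the solitary tract (NTS, 4) and the dorsal-vagal complex (DVC, 3). The cerebellar cortex was sampled in central lobule II (CENT2, 4), culmen lobules IV-V (CUL4-5, 4), the uvula (UVU, 3) and the flocculus (FL, 4). The nucleus accumbens (ACB), the ventral tegmental area (VTA) and the cerebellar nuclei (CBN) had 3 libraries each. The embryonic groups were the forebrain (F, 1), midbrain (M, 2), hindbrain (H, 3) and the terminal and peduncular hypothalamus (THy/PHy, 3). The mESC clones B6-1 and B6-2 were kept on irradiated fibroblasts and passaged on gelatin before RNA was taken, in medium with LIF and the inhibitors CHIR-99021, CI-1040 and PD0325901. They had 2 libraries each, so they stand for 2 clones and not for mESC in general.

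Levels are given as TPM, the abundance of transcripts relative to all transcripts of the library, which the authors computed library by library and added up over a gene's transcripts. TPM corrects for transcript length, but a comparison of levels between genes also depends on which transcripts the reads were assigned to, as described below. Differences between groups come from the estimated counts and are log2 fold changes with their standard errors, in a model that gave every group of a side the same weight. The total count per library ran from 13409041 to 20647884 in the adult, from 9074581 to 22229582 in the embryo and from 12985081 to 18501667 in mESC. A pair of libraries stood apart by their share of mitochondrial TPM, VTA replicate 1 at 39.6% and H replicate 1 at 22.6%, against a median of 7.49%. Samples were collected and prepared in batches that held adult, embryonic or mESC samples only, so stage and batch cannot be told apart. In bulk tissue, fewer cells of a type and less RNA per cell cannot be told apart.

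Cell markers followed the labelled stages. The summed TPM of 5 pluripotency markers was 3927 to 4455 in mESC and at most 19.02 in any brain library. The sum of 5 markers of mature neurons was 1916 to 6104 in the adult, 176 to 648 in the embryo and 10.7 to 13.3 in mESC. The sum of 5 markers of dividing cells was 1.504 to 22.7 in the adult, 166 to 1183 in the embryo and 1207 to 1231 in mESC. The embryonic libraries also held more red cell RNA (3695 to 9805 TPM over 5 genes) than most adult libraries (406 to 6889 TPM), and more fibroblast marker RNA (218 to 1054 against 9.92 to 154 TPM). Some adult libraries held choroid plexus RNA. The sum of 4 choroid plexus markers had a median of 5.545 TPM in the adult and was 3512 to 12600 in CBN. It was 1.52 to 10600 in the hindbrain nuclei (median 5.391) and 1.945 to 3037 in the cerebellar cortex (median 12.09). The part of cell composition in the stage and regional differences was not tested.

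As background, chromatin remodellers use ATP to slide, evict or exchange nucleosomes. SWI/SNF complexes, called BAF in mammals, are built around Smarca2 (BRM) or Smarca4 (BRG1), and many other subunits also come as alternative paralogues. During neural development BAF exchanges subunits, and forms with different subunits are known from embryonic stem cells, neural progenitors and neurons. The CHD proteins carry chromodomains, and Chd3, Chd4 and Chd5 are the alternative ATPases of the NuRD complex, which joins remodelling with histone deacetylation. Smarca1 and Smarca5 are the ISWI ATPases, which space nucleosomes. Most KMT2 proteins write methyl marks on histone H3 that accompany active promoters and enhancers, and KDM proteins remove methyl groups from histone lysines.

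Promoter sequences are shown for a pair of paralogues with different stage patterns, Smarcc1 and Smarcc2, and for Chd5 and Smarcd2, which differed between adult regions. Each is the 250 bases before a transcript start annotated by RefSeq, in build GRCm38.p6, printed along the strand of the gene. Capitals mark the GC box GGGCGG on either strand, a short motif common in promoters. The Smarcc1 window is chr9:110131774-110132023 (+), the Smarcc2 window chr10:128458986-128459235 (+), the Chd5 window chr4:152338401-152338650 (+) and the Smarcd2 window chr11:106267633-106267882 (-). The Ensembl genes (GRCm38) span chr9:110117708-110240178 for Smarcc1, chr10:128459248-128490482 for Smarcc2, chr4:152338651-152390194 for Chd5 and chr11:106263179-106272972 for Smarcd2. For Smarcc1 and Smarcd2 the RefSeq start lies inside the longer gene span of the Ensembl annotation.
Smarcc1: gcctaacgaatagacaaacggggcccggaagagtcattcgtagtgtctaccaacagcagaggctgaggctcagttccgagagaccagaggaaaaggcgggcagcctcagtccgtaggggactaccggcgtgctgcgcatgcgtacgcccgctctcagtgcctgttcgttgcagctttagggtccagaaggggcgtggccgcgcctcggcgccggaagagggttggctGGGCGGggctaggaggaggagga
Smarcc2: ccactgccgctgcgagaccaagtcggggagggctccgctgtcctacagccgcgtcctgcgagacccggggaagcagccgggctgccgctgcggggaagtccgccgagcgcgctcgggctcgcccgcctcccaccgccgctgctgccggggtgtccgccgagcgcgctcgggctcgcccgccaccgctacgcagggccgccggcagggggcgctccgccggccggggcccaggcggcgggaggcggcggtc
Chd5: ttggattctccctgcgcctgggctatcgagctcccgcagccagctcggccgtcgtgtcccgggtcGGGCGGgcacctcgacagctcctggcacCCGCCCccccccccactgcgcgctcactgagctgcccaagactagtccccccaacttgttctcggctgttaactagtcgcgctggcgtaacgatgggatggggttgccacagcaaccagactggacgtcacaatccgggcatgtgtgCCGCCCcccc
Smarcd2: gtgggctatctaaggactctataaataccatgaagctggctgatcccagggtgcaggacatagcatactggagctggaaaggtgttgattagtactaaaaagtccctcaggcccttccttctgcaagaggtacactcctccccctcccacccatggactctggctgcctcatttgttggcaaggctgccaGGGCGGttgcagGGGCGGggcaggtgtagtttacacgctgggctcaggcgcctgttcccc

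The Smarcc2 window had the highest GC content of the 4, 80.8% with 40 CpG and no GC box, against 63.6% with 21 CpG and 1 box for Smarcc1. The Chd5 window held 67.2% GC, 21 CpG and 3 boxes, and the Smarcd2 window 56.4% GC, 4 CpG and 2 boxes. RefSeq windows matched 37 of the 51 genes. A GC box occurred before at least 1 start of 28 of these 37 (75.7%) and of 35.4% of all 27025 genes with windows of the same length. The median GC content was 64.6% for the chromatin genes and 52.4% for all windows, with 21 and 6 CpG per window. These are descriptions of sequence and say nothing of binding.

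All 51 genes passed the filter on low counts, among 19980 genes tested. A mean of 1 TPM or more was reached in all 24 groups by 50 genes, the exception being Kdm4d, a demethylase known mainly from testis, which had a median of 1.03 TPM in the adult libraries, 0.190 in the embryonic libraries and 0.0725 in mESC. The group with the highest mean was embryonic for 25 genes, mESC for 13 and adult for 13, a count that was not made over all genes. For some genes the level rested on short transcripts. A processed transcript of 759 bases held 95.1% of the TPM of Chd9, and 60.9% of its 31-base words also occurred in 16 other genes. A processed transcript of 610 bases held 55.1% of the TPM of Smarce1, and 46.6% of its words occurred in 6 other genes. For Kdm5a a retained intron of 689 bases held 51.8% of the TPM, with 15.9% of its words shared with 1121 other genes. Levels of these 3 genes are therefore uncertain, and log2 fold changes from long coding transcripts alone, those of at least 0.5 of the length of the longest, are given beside them. Arid5a, Chd2, Kmt2c and Smarca2 also had most of their TPM outside long coding transcripts. Their leading transcripts shared at most 6.4% of words with other genes. The counts of Chd1 and Chd8 are incomplete, since 36.7% to 73.5% of the Chd1 TPM and up to 19.5% of the Chd8 TPM of a library lay on transcripts that were not matched.

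**Figure D1:**
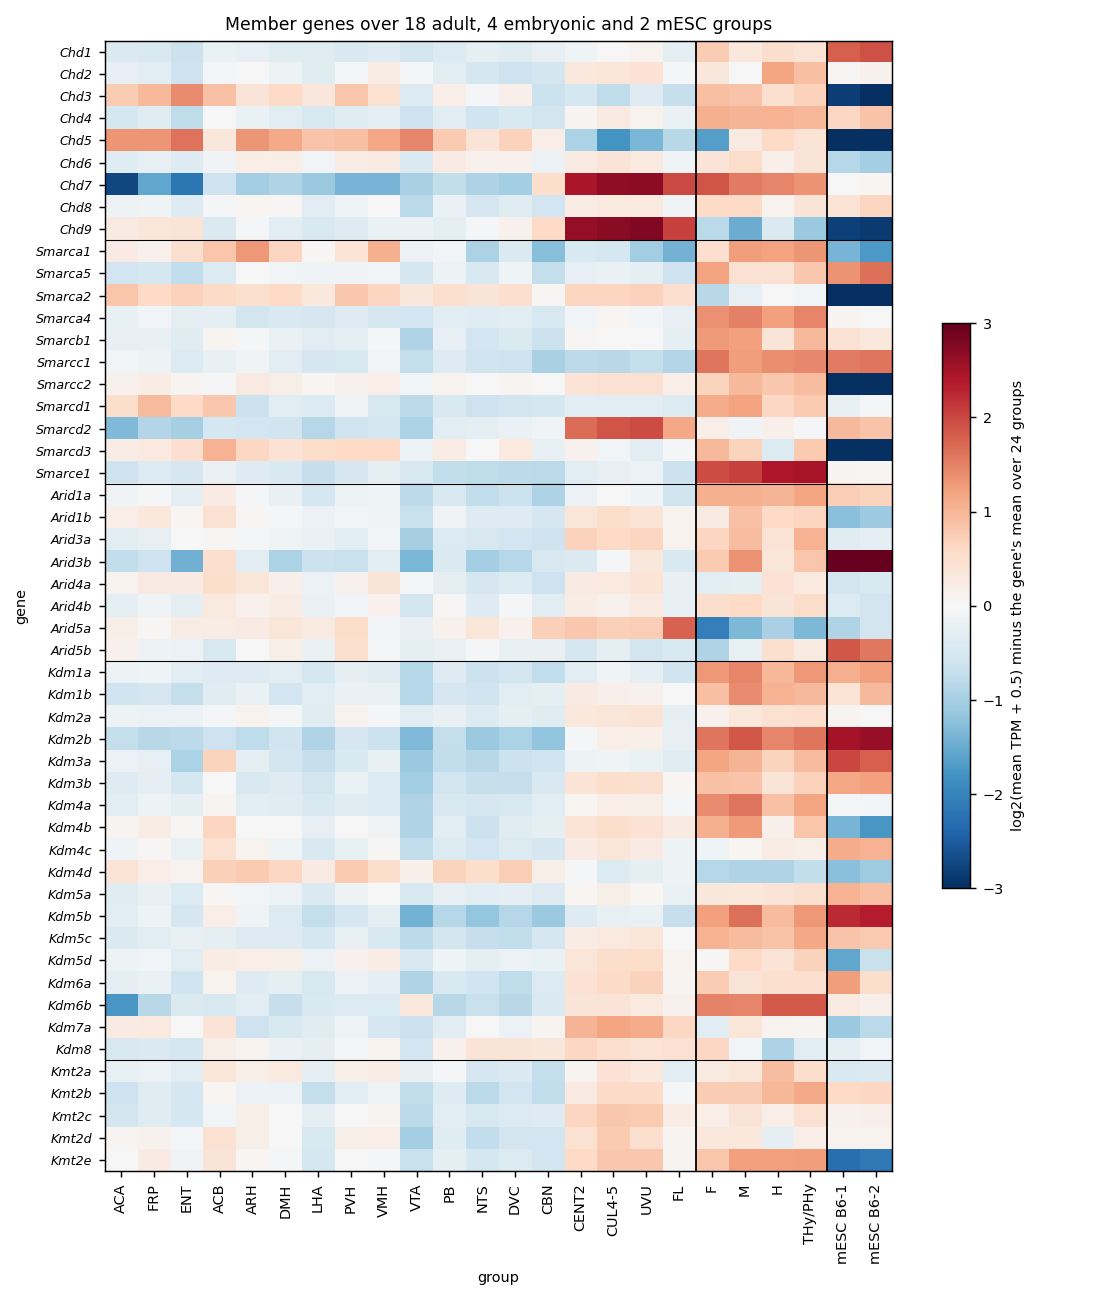
Levels of the 51 genes (rows, in families) in 18 adult, 4 embryonic and 2 mESC groups (columns). Colour is log2 of the group mean TPM plus 0.5, minus the gene's mean over the 24 groups, and is clipped at 3 in either direction. The embryonic columns are red for most genes, mESC are dark blue for Chd3, Chd5, Smarca2, Smarcc2 and Smarcd3, and the cerebellar cortex is red for Chd7, Chd9 and Smarcd2.

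The first comparison asks how expression in the E14.5 brain differed from that in the adult brain. Most of the chromatin genes were higher in the embryo. By edgeR's quasi-likelihood test, with p-values adjusted over all genes tested by the Benjamini-Hochberg method, 40 of 51 rose (78.4%) and 6 fell, where 37.6% of all genes were called higher and 36.7% lower in the embryo. The median log2 fold change was 0.65 over the 51 genes and 0.00 over all genes. At more than 2-fold, 21 genes were higher and 4 lower, against 17.8% and 19.9% of all genes. All 9 embryonic libraries lay above all 57 adult libraries in TPM for 12 of the 51 genes (23.5%), against 5.5% of all genes, and below them for none, against 4.7%. The counts were 41 and 6 without VTA replicate 1, 40 and 6 without H replicate 1, and 42 and 6 without the F library. With the F library kept in the fit but left out of the embryonic side, they were 40 and 7, and Smarcd3 lost its call.

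Smarca4 and Smarca2, the alternative ATPases of SWI/SNF, moved in opposite directions. Smarca4 ran from 42.7 to 108 TPM in the adult libraries (median 79.0), from 155 to 292 in the embryonic libraries (median 268), and stood at 105, 103, 94.4 and 104 in the 4 mESC libraries. Every embryonic library was therefore above every adult library, and the mESC libraries lay at the top of the adult range. The log2 fold change from adult to embryo was 1.71 ± 0.03 (edgeR, adjusted p = 4.67e-43), and from embryo to mESC it was -0.98 ± 0.06 (adjusted p = 5.18e-20). Smarca2 ran from 155 to 322 TPM in the adult (median 241) and from 91.2 to 194 in the embryo (median 146), and was 8.61, 9.11, 8.26 and 5.75 in mESC. The adult and embryonic ranges overlapped, and mESC lay far below both. Smarca2 fell by 1.46 on the log2 scale from adult to embryo (edgeR, adjusted p = 4.28e-23) and by 3.03 from embryo to mESC (adjusted p = 6.06e-28).

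The share of Smarca4 in the summed TPM of both ATPases was 16.3% to 35.2% in the adult, 44.5% to 73.8% in the embryo and 91.8% to 94.8% in mESC, with no overlap between the stages at gene level. Only 25.2% of the Smarca2 TPM lay on long coding transcripts. With these alone the median share of Smarca4 was 56.6% in the adult, 94.0% in the embryo and 97.4% in mESC. Its ranges then overlapped between embryo (88.3% to 97.7%) and mESC (97.0% to 97.5%), with the adult below both at 47.0% to 66.2%. The fall of Smarca2 was then 2.13 from adult to embryo and 1.78 from embryo to mESC on the log2 scale.

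Of the scaffold subunits, Smarcc1 (BAF155) was lowest in the adult and Smarcc2 (BAF170) was lowest in mESC. Smarcc1 ran from 22.3 to 49.5 TPM in the adult (median 31.5) and from 106 to 147 in the embryo (median 127), and was 142, 144, 148 and 147 in mESC. Smarcc2 ran from 120 to 234 TPM in the adult (median 184) and from 211 to 371 in the embryo (median 305), and was 17.6, 19.2, 19.5 and 19.4 in mESC. The embryonic and mESC ranges of Smarcc1 overlapped, while Smarcc2 was lower in mESC than in any brain library. Smarcc2 fell by 3.70 ± 0.09 on the log2 scale from the embryo (edgeR, adjusted p = 1.13e-37). Smarcc1 rose by 1.99 ± 0.04 from adult to embryo (edgeR, adjusted p = 6.26e-41) and by 0.60 ± 0.08 from embryo to mESC (adjusted p = 1.55e-09). This last call was not made by limma on log2 TPM, where the difference was 0.16 (adjusted p = 0.0724). Smarcc1 made up 9.72% to 20.5% of the summed TPM of the pair in the adult, 24.8% to 40.4% in the embryo and 88.2% to 89.0% in mESC.

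Smarcd1, Smarcd2 and Smarcd3 encode the alternative BAF60 subunits, of which Smarcd3 (BAF60c) is known from heart and neurons. Smarcd3 ran from 26.1 to 151 TPM in the adult (median 80.5) and from 27.8 to 162 in the embryo (median 103), and was 5.91, 7.08, 5.82 and 6.38 in mESC. The brain stages overlapped throughout and mESC lay below all 66 brain libraries. The fall from embryo to mESC was 3.54 on the log2 scale (edgeR, adjusted p = 2.07e-28). The rise from adult to embryo was 0.29 ± 0.07 (edgeR, adjusted p = 0.000197). This call was lost by limma on log2 TPM and with F left out of the embryonic side. The matched regions described further on went opposite ways, 0.31 ± 0.11 in the hypothalamus and -0.43 ± 0.13 in the hindbrain (edgeR, adjusted p = 0.0157 and 0.00204). The hypothalamic call was lost without THy/PHy replicate 1 and the hindbrain call without H replicate 1. Smarcd2 went the other way, from 16.6 to 27.2 TPM in the embryo to 43.1, 48.4, 39.9 and 44.7 in mESC, with a log2 fold change of 1.44 ± 0.11 (edgeR, adjusted p = 3.03e-17). Smarcd1 rose by 1.08 ± 0.04 from adult to embryo (edgeR, adjusted p = 1.52e-29) and fell by 0.68 from embryo to mESC (adjusted p = 1.29e-11). The median share of Smarcd3 in the 3 genes was 50.6% in the adult, 39.2% in the embryo and 5.50% in mESC.

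Smarce1, which encodes the HMG-box subunit BAF57, had the largest rise from adult to embryo of the 51 genes. Its TPM was 76.5 to 142 in the adult (median 109), 594 to 992 in the embryo (median 699), and 173, 152, 146 and 170 in mESC. The embryonic libraries stood far above both other stages. The log2 fold change from adult to embryo was 2.67 ± 0.05 (edgeR, adjusted p = 1.25e-42), and 2.72 with long coding transcripts alone, whose TPM was 16.5 to 35.5 in the adult and 127 to 181 in the embryo. Smarcb1 (SNF5), a core subunit, rose by 1.17 ± 0.04 (edgeR, adjusted p = 9.69e-32). The ARID1 subunits that define canonical BAF both rose, Arid1a by 1.37 ± 0.05 (edgeR, adjusted p = 9.94e-31) and Arid1b by 0.56 ± 0.04 (adjusted p = 8.8e-20). In mESC, Arid1b was 10.8 to 12.7 TPM against 27.4 to 51.3 in the embryo and fell by 1.55 on the log2 scale (edgeR, adjusted p = 2.74e-27). Arid1a was 96.7 to 104 TPM in mESC and 107 to 162 in the embryo, with no call by edgeR (adjusted p = 0.712).

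**Figure D2:**
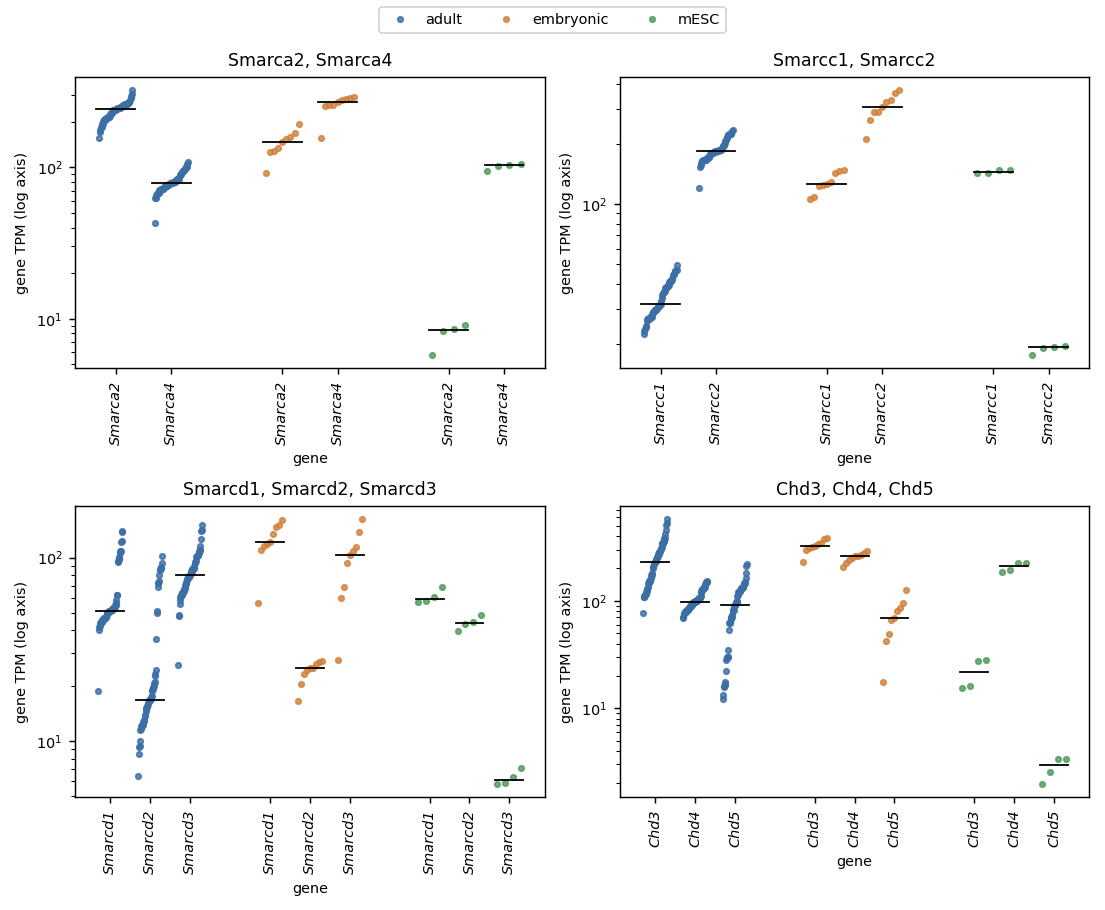
Gene TPM (log axis) of alternative SWI/SNF and NuRD subunits in 57 adult, 9 embryonic and 4 mESC libraries. Points are libraries in order of their value, and bars are medians. The mESC points of Smarca2, Smarcc2, Smarcd3, Chd3 and Chd5 lie below all brain points of the same gene.

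Of the ATPases of NuRD, Chd3 and Chd5 were lower in mESC than in all brain libraries. Chd3 ran from 77.3 to 575 TPM in the adult (median 231) and from 228 to 386 in the embryo (median 321), and was 27.7, 28.3, 16.0 and 15.4 in mESC. Chd5, a CHD gene known for its expression in neurons, ran from 12.1 to 218 TPM in the adult (median 91.2) and from 17.4 to 127 in the embryo (median 68.7), and was 2.55, 3.35, 1.97 and 3.33 in mESC. Their adult and embryonic ranges overlapped. Chd5 fell by 4.39 and Chd3 by 4.06 on the log2 scale from embryo to mESC (edgeR, adjusted p = 7.03e-22 and 7.54e-39), the 2 largest falls of the 51 genes. From adult to embryo Chd5 fell by 1.06 (edgeR, adjusted p = 1.56e-09) and Chd3 rose by 0.24 ± 0.05 (adjusted p = 9.65e-06). In the matched regions described further on, Chd3 was not called in the hypothalamus (-0.10; edgeR, adjusted p = 0.262). In the hindbrain it rose by 0.20 (edgeR, adjusted p = 0.0219), a call lost without H replicate 2.

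Chd4 kept a high level at all stages, with 69.5 to 152 TPM in the adult (median 98.4), 206 to 291 in the embryo (median 262) and 187, 195, 223 and 227 in mESC. It rose by 1.22 ± 0.03 from adult to embryo (edgeR, adjusted p = 3.3e-38), with no overlap between the ranges. Its difference between mESC and embryo depended on the scale: 0.24 ± 0.05 by edgeR (adjusted p = 4.82e-05) and -0.29 by limma on log2 TPM (adjusted p = 0.00038). Chd4 made up a median 22.1% of the summed TPM of Chd3, Chd4 and Chd5 in the adult, 39.7% in the embryo and 89.2% in mESC.

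The other CHD genes moved less evenly. Chd7, whose loss in humans underlies CHARGE syndrome, was 43.8 to 87.6 TPM in the embryo and rose by 1.97 ± 0.06 over the adult groups (edgeR, adjusted p = 8.47e-33). The adult range of 2.66 to 191 TPM overlapped the embryonic range through the cerebellar cortex, described further on. Chd1, which binds methylated histone H3 at active genes and is known from the open chromatin of mESC, ran from 15.1 to 33.2 TPM in the adult (median 23.6) and from 34.9 to 50.3 in the embryo (median 41.1), and was 99.2 to 114 in mESC. The 3 stages did not overlap. By edgeR on its incomplete counts, Chd1 rose by 1.33 ± 0.11 from embryo to mESC (adjusted p = 4.09e-16), and by limma on log2 TPM by 1.34 (adjusted p = 1.06e-20). Chd9 fell by 0.58 from adult to embryo (edgeR, adjusted p = 2.52e-08), but rose by 0.45 with long coding transcripts alone (adjusted p = 3.09e-10), so its direction depended on which transcripts were counted. The ISWI ATPase Smarca5 rose at each step, from 19.1 to 55.0 TPM in the adult to 60.9 to 110 in the embryo and 114 to 158 in mESC. Its log2 fold changes were 0.95 ± 0.05 and 1.23 ± 0.08 (edgeR, adjusted p = 2.06e-24 and 1.72e-19). Its paralogue Smarca1 rose by 1.05 ± 0.07 in the embryo (edgeR, adjusted p = 6.47e-20) and fell by 2.64 from there to mESC (adjusted p = 1.57e-23), where it was 3.10, 6.59, 3.80 and 3.69 TPM.

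Among the demethylases, Kdm2b, a CpG-binding subunit of a variant Polycomb complex, rose most. It ran from 7.03 to 32.3 TPM in the adult (median 15.2) and from 38.7 to 95.1 in the embryo (median 84.7), and was 151, 138, 150 and 163 in mESC. The stages did not overlap. The log2 fold change was 2.25 ± 0.05 from adult to embryo and 3.27 ± 0.05 from adult to mESC (edgeR, adjusted p = 2.79e-42 and 5.57e-47). Kdm5b, which removes methyl marks of active promoters, followed the same order with 5.98 to 33.9 TPM in the adult, 38.7 to 99.9 in the embryo, and 132, 142, 158 and 138 in mESC. Its log2 fold change from adult to mESC was 3.13 ± 0.04 (edgeR, adjusted p = 4.91e-52). Kdm6b (JMJD3), which removes a Polycomb mark, peaked in the embryo at 76.4 to 136 TPM, against 8.16 to 69.5 in the adult and 32.0 to 37.6 in mESC. It rose by 2.05 ± 0.14 from adult to embryo (edgeR, adjusted p = 9.66e-20) and fell by 1.14 from embryo to mESC (adjusted p = 0.000165). Kdm5a, a relative of Kdm5b, rose by 0.42 ± 0.03 from adult to embryo (edgeR, adjusted p = 3.59e-16), and by 0.43 with long coding transcripts alone. Kdm4c, a demethylase of the JMJD2 family, was 27.4 to 31.6 TPM in mESC against 12.3 to 17.53 in the embryo, and rose by 1.47 ± 0.06 between them (edgeR, adjusted p = 1.53e-28). Kdm1a (LSD1) and Kdm1b, the amine oxidase demethylases, rose by 1.67 ± 0.03 and 1.57 ± 0.04 in the embryo (edgeR, adjusted p = 1.46e-42 and 1.21e-36), and every embryonic library lay above every adult library. Kdm4d fell from 0.312 to 1.97 TPM in the adult to 0.0728 to 0.456 in the embryo, a log2 fold change of -2.57 ± 0.21 (edgeR, adjusted p = 2.07e-16).

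Of the 5 KMT2 genes, 4 were higher in the embryo, with log2 fold changes from 0.28 to 1.29. The fifth, Kmt2d, was 11.1 to 85.0 TPM in the adult and 27.4 to 59.9 in the embryo without a call. Kmt2e, a distant member of the family, was 32.7 to 111 TPM in the adult (median 56.6), 103 to 151 in the embryo (median 137), and 11.7, 11.7, 11.2 and 14.46 in mESC. It rose by 1.29 ± 0.09 from adult to embryo (edgeR, adjusted p = 3.21e-18) and fell by 3.14 from embryo to mESC (adjusted p = 1.44e-20). The DNA-binding ARID genes split. Arid3b rose at each step, from 1.29 to 14.8 TPM in the adult and 3.78 to 17.6 in the embryo to 70.1, 70.7, 67.5 and 76.8 in mESC, with the largest rise of the 51 genes from embryo to mESC, 2.97 ± 0.11 (edgeR, adjusted p = 5.37e-30). Arid5b rose by 2.14 ± 0.11 from embryo to mESC (edgeR, adjusted p = 1.48e-23), with 45.4 to 59.6 TPM in mESC against 7.77 to 28.0 in the embryo. Arid5a fell by 1.87 from adult to embryo (edgeR, adjusted p = 4.28e-20), from a median of 9.72 TPM to 2.62. With long coding transcripts alone it fell by 1.79.

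**Figure D3:**
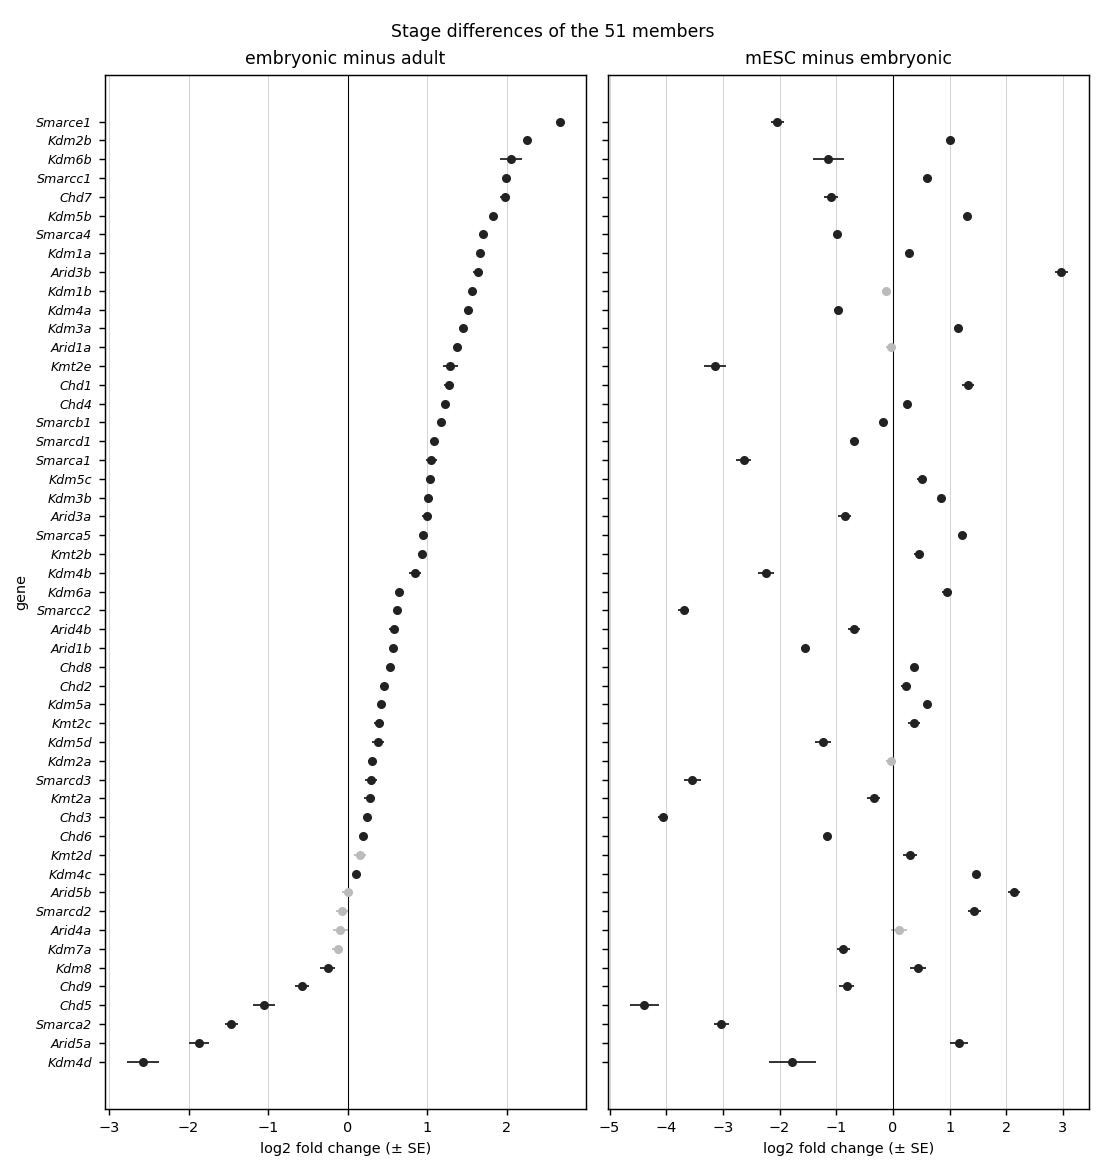
Log2 fold changes (points, with their standard error) of the 51 genes from adult to embryo (left) and from embryo to mESC (right), in the order of the left panel. Black points have an adjusted p under 0.05 by edgeR and grey points do not. On the left 40 genes rose and 6 fell, and on the right 23 rose and 24 fell.

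The second comparison sets mESC against the brain. From embryo to mESC the calls went both ways. By edgeR 23 of 51 genes rose and 24 fell, where 38.7% of all genes were called higher and 38.9% lower, and the median log2 fold change was -0.04 over the chromatin genes and -0.002 over all genes. From adult to mESC 31 rose and 15 fell, against 42.2% and 41.8% of all genes, with a median of 0.68 against -0.05. In TPM, all mESC libraries lay above all embryonic libraries for 11 genes (21.6%) and below them for 20 (39.2%), against 20.1% and 28.6% of all genes. These counts depended on the scaling, since the median of all genes from embryo to mESC was 0.215 with DESeq2 and -0.2 with limma on log2 TPM. From embryo to mESC, DESeq2 called 23 genes higher and 21 lower, and limma 13 and 30. From adult to mESC the median of all genes was 0.21 and -0.195, with 33 and 15 calls by DESeq2 and 26 and 18 by limma. The falls of Chd3, Chd5, Smarcc2, Smarcd3, Kmt2e and Smarca2 were 2.87 or more on the log2 scale by edgeR, DESeq2 and limma alike. From adult to mESC, Arid3b rose by 4.61 ± 0.06, and Chd5 and Smarca2 fell by 5.45 and 4.49 on the log2 scale (edgeR, adjusted p = 1.26e-50, 6.27e-26 and 1.63e-35). Chd1 on its incomplete counts and Smarcc1 each rose by 2.60, and Chd3 and Smarcd3 fell by 3.82 and 3.25 (edgeR, adjusted p = 2.56e-36, 1.09e-42, 7.48e-40 and 1.31e-28). Kdm4d was also called lower, at a median of 0.0725 TPM in mESC.

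The subunits and partners of these enzymes, from lists of non-members, gave the following counts. Of 4 neuron-type BAF subunits outside the 51 genes (Actl6b, Dpf1, Dpf3 and Ss18l1), all 4 rose from adult to embryo and all 4 fell from embryo to mESC. Of 3 progenitor-type subunits, all 3 rose from adult to embryo, and from embryo to mESC Actl6a and Ss18 rose by 2.13 ± 0.09 and 1.37 ± 0.07 (edgeR, adjusted p = 7.95e-28 and 1.12e-24), while Phf10 fell by 0.17. Of 10 other SWI/SNF subunits, 8 rose and 2 fell from adult to embryo, and 1 rose and 8 fell from embryo to mESC. NuRD subunits rose for 9 of 11 from adult to embryo and fell for 2, and rose for 6 and fell for 5 from there to mESC. Subunits of KMT2 complexes rose for 10 of 11 and fell for 1 from adult to embryo, those of Polycomb complex PRC2 rose for 6 of 8 and fell for 2, and all 7 ISWI partners and all 4 members of the LSD1 complex rose. The share of all genes called in each direction is given above.

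The third comparison asks whether the stage difference was alike in matched regions, the hypothalamus and the hindbrain. In the hypothalamus (THy/PHy against the 5 adult nuclei) 39 genes rose and 4 fell, against 33.9% and 33.6% of all genes, with a median of 0.77 over the chromatin genes. In the hindbrain (H against PB, NTS and DVC) 42 rose and 6 fell, against 36.6% and 34.2% of all genes, with a median of 0.92. The fit of both regions used the same model of all 70 libraries. Embryonic sections were sampled by single punches, pooled from several embryos per library, and the adult groups were named nuclei. Place and dissection may therefore differ along with stage. The largest rises in the hypothalamus were those of Smarce1 (2.85 ± 0.09), Chd7 (2.66 ± 0.11), Kdm6b (2.41 ± 0.23), Kdm2b (2.37 ± 0.08) and Arid3b (2.21 ± 0.10). In the hindbrain they were Smarce1 (3.06 ± 0.10), Kdm6b (2.92 ± 0.25), Chd7 (2.48 ± 0.12), Kmt2e (2.35 ± 0.16) and Kdm2b (2.34 ± 0.08). Kdm4d, Arid5a, Chd5 and Smarca2 fell in both, by 2.52, 1.73, 1.22 and 1.18 on the log2 scale in the hypothalamus (edgeR, adjusted p at most 2.42e-06). In the hindbrain Kdm4d fell by 3.20, Arid5a by 1.37, Kdm8 by 1.15 and Smarca2 by 1.05 (edgeR, adjusted p at most 5.05e-08). There the fall of Chd5 by 1.33 (edgeR, adjusted p = 7.73e-07) was not called by limma on log2 TPM, where it was 0.17.

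A direct test of the difference between the regions, the interaction of stage and region, called 7 genes with a more positive stage difference in the hypothalamus and 13 with a more positive one in the hindbrain, against 15.3% and 15.1% of all genes. Smarca1 differed most. Its TPM was 37.6, 38.7 and 28.3 in THy/PHy and 13.4 to 35.9 in the 14 adult hypothalamic libraries, and 30.4, 31.5 and 34.2 in H and 5.69 to 13.5 in the 10 adult hindbrain libraries. The embryonic regions overlapped, and the adult hindbrain was the lowest of the 4 sets. The stage difference was 0.67 ± 0.12 in the hypothalamus and 1.96 ± 0.12 in the hindbrain, and the interaction was -1.29 ± 0.18 (edgeR, adjusted p = 2.17e-07). Kdm8, a protease and hydroxylase of the JmjC family, gave 0.90 ± 0.22 (edgeR, adjusted p = 0.00183). Its TPM was 5.37, 2.40 and 2.74 in THy/PHy against 2.70 to 6.38 in the adult hypothalamus, and 1.32, 2.01 and 3.11 in H against 3.75 to 8.12 in the adult hindbrain. Smarcd3 gave 0.74 ± 0.17 (edgeR, adjusted p = 0.00073), with 162, 93.3 and 103 TPM in THy/PHy and 27.7, 59.9 and 68.7 in H. Arid3b gave 0.65 ± 0.17, Smarcd2 0.46 ± 0.17 and Smarca4 0.37 ± 0.09 (edgeR, adjusted p = 0.00268, 0.0362 and 0.00137). On the other side stood Chd1 on its incomplete counts (-0.70 ± 0.17, adjusted p = 0.00107 by edgeR), Kmt2e (-0.67 ± 0.25, adjusted p = 0.0335), Arid5b (-0.64 ± 0.17, adjusted p = 0.00317) and Arid4a (-0.64 ± 0.21, adjusted p = 0.0167). These counts rested on few libraries. Without H replicate 1, the library of lowest depth, 5 and 9 genes were called, and without THy/PHy replicate 1 there were 4 and 6, and without H replicate 3 the second count was 23. The calls of 10 genes held whichever single library was left out, namely Smarca1, Chd1, Arid5b, Chd2, Kdm1b, Kdm5b, Smarca4, Arid3b, Smarcd3 and Kdm8. Limma on log2 TPM called 3 and 5, and 12 of the 20 calls were lost, those of Arid1b, Arid3b, Arid5b, Chd1, Chd3, Kdm1a, Kdm1b, Kdm5b, Kdm6a, Kmt2e, Smarcb1 and Smarcd2. For Chd1 the interaction was -0.11 by limma (adjusted p = 0.575).

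The fourth comparison is between divisions of the adult brain. By an edgeR test over the 18 adult groups, all 51 genes varied between regions, as did 80.9% of all genes tested. Chd7 varied most, with a group mean 49.3 times higher in UVU than in ACA, followed by Chd5 (11.1 times, ENT over CUL4-5) and Smarcd2 (10.2 times, UVU over ACA). For Chd9 the ratio was 9.50 at gene level (UVU over LHA) and 2.70 with long coding transcripts alone (UVU over VTA), and for Smarca1 it was 7.12 and 6.00 (ARH over FL). VTA, the group that holds the library with 39.6% mitochondrial TPM, had the lowest adult group mean for 28 genes. This count was not made over all genes either.

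The cerebellar cortex, made up mostly of granule cells, stood out from the other adult groups. There 35 genes were higher and 9 lower, against 32.9% and 33.1% of all genes, with a median log2 fold change of 0.27 over the chromatin genes and 0.00 over all genes. By limma on log2 TPM the split was 40 and 8, and 61.8% of the calls over all genes were higher, against 49.9% by edgeR. Without VTA replicate 1 edgeR called 37 and 8. The summed TPM of 5 granule cell markers was 1072 to 2860 in the cerebellar cortex, 218 to 397 in CBN and at most 244 in the cortex, hypothalamus and hindbrain nuclei. That of 5 genes listed as neural progenitor markers (Nes, Hes5, Pax6, Vim and Sox1) was 276 to 644 in the cerebellar cortex and at most 210 in the other adult libraries. That of 5 markers of dividing cells was 2.10 to 5.04 in the cerebellar cortex, against 1.504 to 22.65 over all adult libraries. The progenitor sum is therefore given as a level of these genes only. The part of cell composition in these differences was not tested.

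Chd7 was higher in the cerebellar cortex by 3.37 ± 0.06 (edgeR, adjusted p = 4.38e-45), the largest difference among the chromatin genes in the adult. It was 98.4, 123, 164 and 133 TPM in CENT2, 132, 173, 152 and 140 in CUL4-5, 113, 191 and 152 in UVU, and 127, 98.3, 85.9 and 64.3 in FL. All 15 libraries lay above the other 42 adult libraries, which ran from 2.66 to 42.7 TPM. The highest of those were the 3 of CBN, at 27.8, 30.6 and 42.7 TPM, and the lowest those of the cortex, at 2.66 to 9.02 TPM. With long coding transcripts alone the difference was 3.34.

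Smarcd2 showed the same split, with 36.1 to 102 TPM in the cerebellar cortex (median 80.4) and 6.41 to 24.4 in the other adult libraries (median 15.3). FL was the lowest of the 4 cerebellar groups at 72.3, 50.8, 49.5 and 36.1 TPM, and no library overlapped with the rest of the brain. The log2 fold change was 2.34 ± 0.05 (edgeR, adjusted p = 6.35e-40). Smarcd2 made up 24.9% to 51.02% of the summed TPM of Smarcd1, Smarcd2 and Smarcd3 in the cerebellar cortex and 4.53% to 5.82% in the cortex. Chd9 was higher by 1.88 ± 0.06 (edgeR, adjusted p = 1.54e-33), of which 0.61 remained with long coding transcripts alone (adjusted p = 1.05e-17). Kdm7a, a demethylase with a PHD finger, was 14.9 to 25.9 TPM in the cerebellar cortex and 4.93 to 15.1 elsewhere, a difference of 1.06 ± 0.05 (edgeR, adjusted p = 1.71e-25). Arid3a was higher by 0.79 ± 0.06 (edgeR, adjusted p = 1.67e-18). All 5 KMT2 genes were higher, by 0.19 to 0.70 on the log2 scale. Within the cerebellar cortex Arid5a was highest in FL, at 19.2, 24.7, 33.0 and 32.8 TPM, above all other adult libraries. With long coding transcripts alone its mean was also highest in FL, at 5.78 TPM.

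Chd5 had the largest fall in the cerebellar cortex. It was 12.1 to 53 TPM in the cerebellar cortex (median 22.1) and 62.0 to 218 in the other adult libraries (median 118), with no overlap, and fell by 2.44 on the log2 scale (edgeR, adjusted p = 8.54e-26). Chd3 fell by 1.22 (edgeR, adjusted p = 4.71e-32), from a median of 271 TPM to 128, and Chd4 rose by 0.32 ± 0.03 (adjusted p = 4.8e-16). The median share of Chd4 in the 3 NuRD ATPases was 44.1% in the cerebellar cortex, 22.7% in the hindbrain nuclei, 19.6% in the hypothalamus and 14.7% in the cortex. Smarca1 fell by 1.13 and Smarcc1 by 0.69 on the log2 scale (edgeR, adjusted p = 7.77e-22 and 9.46e-21). Kdm4d fell by 1.24 (edgeR, adjusted p = 1.09e-12).

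**Figure D4:**
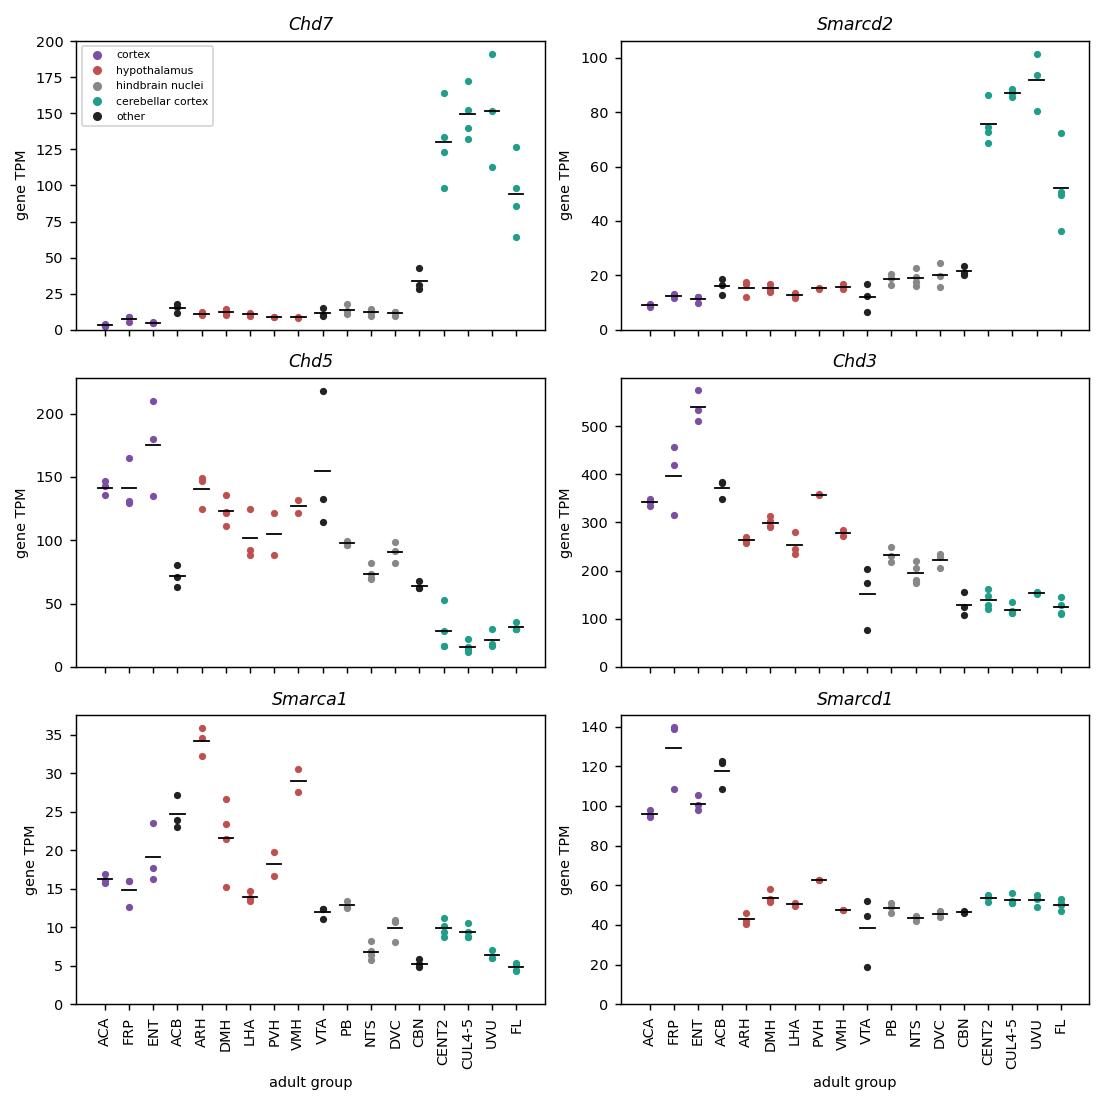
Gene TPM of 6 genes in the 57 adult libraries (points) of 18 groups, with group means as bars and divisions in colour. Chd7 and Smarcd2 are high in the 15 libraries of the cerebellar cortex, Chd5 is low in them, Smarcd1 is high in the cortical groups and ACB, and Smarca1 is high in ARH and VMH.

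In the cortex 20 genes were higher and 15 lower than in the other adult groups, against 28.9% and 29.8% of all genes. By limma on log2 TPM the split was 11 and 20, and 37.2% of the calls over all genes were higher, against 49.2% by edgeR. Chd5 (1.28 ± 0.10), Smarcd1 (1.17 ± 0.04) and Chd3 (1.11 ± 0.04) were highest (edgeR, adjusted p = 7.76e-16, 3.9e-31 and 1.22e-29). Smarcd1 was 94.6 to 140 TPM in the 9 cortical libraries and 109, 122 and 122 in ACB, and at most 62.6 in the hypothalamus, hindbrain nuclei, VTA and cerebellum. The cortical groups and ACB therefore stood above the rest without overlap. Chd3 was 315 to 575 TPM in the cortex, highest in ENT. Smarca1 and Smarcc1 were higher by 0.59 ± 0.07 and 0.54 ± 0.05 (edgeR, adjusted p = 7.59e-11 and 5.34e-15). Chd7 fell by 2.26 and Smarcd2 by 0.98 on the log2 scale (edgeR, adjusted p = 1.29e-28 and 6.62e-17), and Kdm6b by 0.67 (adjusted p = 0.000355), Kdm8 by 0.56 (adjusted p = 4.31e-07) and Kmt2c by 0.41 (adjusted p = 3.07e-07). Every comparison of a division has the cerebellar cortex in its reference except its own, and the comparisons share their libraries.

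In the hypothalamus 12 genes were higher and 22 lower, against 26.9% and 24.3% of all genes. By limma on log2 TPM the split was 15 and 8, and 66.8% of the calls over all genes were higher, against 52.5% by edgeR, so the direction of the smaller differences depended on the scaling. Smarca1 was highest (0.87 ± 0.06; edgeR, adjusted p = 2.17e-18). It was 34.5, 32.2 and 35.9 TPM in ARH and 27.6 and 30.5 in VMH, the groups with the highest adult means, and their values did not overlap. LHA, at 13.4 to 14.7 TPM, was the lowest hypothalamic group. Chd5 was higher by 0.84 ± 0.09 and Chd3 by 0.38 ± 0.04 (edgeR, adjusted p = 6.78e-11 and 1.5e-12), with 88.6 to 149 and 234 to 358 TPM. Kdm4d and Smarcd3 were higher by 0.40 ± 0.12 and 0.32 ± 0.06 (edgeR, adjusted p = 0.00323 and 4.18e-06). Chd7, Smarcd2, Kdm7a, Chd9 and Smarcd1 fell by 1.17, 0.91, 0.84, 0.81 and 0.37 on the log2 scale (edgeR, adjusted p = 1.24e-20, 5.57e-18, 4.4e-18, 4.81e-15 and 7.8e-12). The fall of Chd9 was not called with long coding transcripts alone (adjusted p = 0.162).

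In the hindbrain nuclei 37 of the 51 genes were lower and 4 higher, against 24.6% and 26.1% of all genes, with a median log2 fold change of -0.24 over the chromatin genes and -0.004 over all genes. The differences were small, none of them beyond 2-fold. Chd9 and Kdm6a fell by 0.57 each, Smarca1 by 0.55, Kdm5b by 0.53 and Arid3a by 0.53 on the log2 scale (edgeR, adjusted p = 3.52e-09, 3.28e-13, 4.53e-09, 3.86e-17 and 7.07e-09). With long coding transcripts alone Chd9 fell by 0.27 (adjusted p = 2.96e-05 by edgeR). The genes that were higher were Kdm4d (0.65 ± 0.13), Chd5 (0.39 ± 0.11), Kdm8 (0.30 ± 0.08) and Chd6 (0.24 ± 0.04), by edgeR with adjusted p = 1.89e-05, 0.0019, 0.00153 and 5.98e-07. By limma on log2 TPM the split was 31 lower and 3 higher, and Chd5 was not called (0.20, adjusted p = 0.203). The summed TPM of 5 oligodendrocyte markers was 9572 to 14670 in the hindbrain nuclei, 579 to 2000 in the cortex and 844 to 12950 in the hypothalamus. The part of white matter in these differences was not tested.

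Among the 51 genes, 4 are sex-linked, Kdm5c, Kdm6a and Smarca1 on chromosome X and Kdm5d on chromosome Y. The values of the mESC clones did not overlap for Kdm6a and Kdm5d. Kdm6a (UTX) was 50.2 and 45.8 TPM in B6-1 and 31.1 and 27.0 in B6-2, and Kdm5d was 3.28 and 3.06 in B6-1 and 6.71 and 5.89 in B6-2. Kdm5c was 69.9 and 80.0 TPM in B6-1 and 75.1 and 68.8 in B6-2, and Smarca1 was 3.10 and 6.59 in B6-1 and 3.80 and 3.69 in B6-2, so the clones overlapped for these genes. Of the Y-linked genes outside the 51, Ddx3y was 0.340 and 0.0270 TPM in B6-1 and 10.4 and 9.79 in B6-2, and Eif2s3y was 0.278 and 0.386 against 44.9 and 42.6. These genes were at or near 0 in B6-1, where Kdm5d was not. Kdm5d and Kdm5c are close in sequence, so reads of one may have been assigned to the other, and the Kdm5d level is uncertain. The differences between the clones were not tested. Between stages, Kdm5c rose by 1.03 ± 0.05 from adult to embryo (edgeR, adjusted p = 5.52e-27), Kdm6a by 0.65 ± 0.05 (adjusted p = 2.23e-16) and Kdm5d by 0.38 ± 0.08 (adjusted p = 2.88e-05). The Y-linked Ddx3y was lower in the embryo, at 5.85 to 17.2 TPM against 15.2 to 40.9 in the adult. Eif2s3y overlapped, at 21.4 to 77.4 TPM in the embryo and 19.2 to 76.4 in the adult. The adult mice were males and the sex of the embryos is not given, so sex and stage cannot be told apart for these genes. In the cerebellar cortex Kdm6a was higher by 0.79 ± 0.04 and Kdm5c by 0.52 ± 0.04 than in the other adult groups (edgeR, adjusted p = 5.02e-23 and 2.11e-17).

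**Figure D5:**
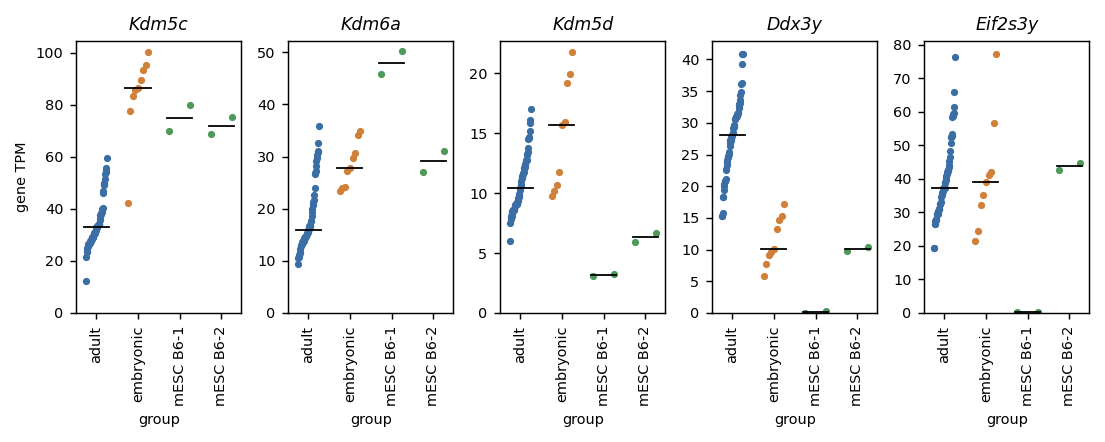
Gene TPM of Kdm5c, Kdm6a and Kdm5d and of the Y-linked genes Ddx3y and Eif2s3y in adult and embryonic libraries and in the 2 mESC clones. Points are libraries and bars are medians. Ddx3y and Eif2s3y are at or near 0 in clone B6-1 and between 9.79 and 44.9 TPM in clone B6-2.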

How the data were processed

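Punch biopsies of frozen brain sections and cultured mESC gave stranded mRNA libraries, read in single reads of 33 cycles. Base call files were converted to FASTQ with CASAVA 1.8.2. The authors estimated transcript levels with kallisto 0.43.1 (fragment length 120, SD 20) on the Ensembl GRCm38 cDNA sequences. The deposited files hold estimated counts per transcript, and the authors' TPM per transcript and summed per gene. All columns were mapped to a sample by name.

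For each gene, the deposited estimated counts of its transcripts were added up and then rounded to whole numbers. A gene was found for 107987 of 109282 transcripts, and 0.42% to 0.77% of a library's counts had no match. A single edgeR 4.0.16 quasi-likelihood model (R 4.3.3, TMM normalization, filterByExpr) with 24 group means was fitted to all 70 libraries. Contrasts averaged group means with equal weight, and p-values were adjusted by the Benjamini-Hochberg method over 19980 genes, with calls at an adjusted p under 0.05. The published design, 1 region against all others, was replaced by contrasts of stages and divisions. Alternatives were DESeq2 1.42.0, limma 3.58.1 on log2(TPM + 0.5) or log2(TPM + 0.1), other filters and scalings, a replicate block, each library left out, and long coding transcripts alone. The last was chosen after seeing the data. With a library left out, the gene filter and the dispersion trend of all libraries were kept. In simulated data for the comparison of embryo and adult, with 18515 genes, 60 of 100 genes changed 1.5-fold and 74 of 100 changed 2-fold were called in the right direction, and 3 unchanged genes were called.

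The genes and lists were chosen with earlier results of these data known. In each comparison the text names the 5 called genes that rose most and the 5 that fell most, or fewer where fewer rose or fell, and paralogue sets, and others by counts and ranges or as examples chosen after their values were seen. Batches of sample collection and preparation, listed per region without replicate numbers, were not used here. Libraries of different regions share mice or embryos, and were treated as independent. The p-values measure the spread between pools or cultures.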

Additional observations from a re-analysis of the deposited data

Results flagged for a closer look

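In groups of 4 libraries, 1 library lay far from the others for 18 of 255 combinations of a gene and a group, where chance gives about 1 in 20. The first library of FL was the highest for 8 genes, with 41.29 TPM for Chd2, 35.12 for Chd5, 47.6 for Kdm4b, 49.96 for Kdm5c, 43.65 for Kdm6b, 31.84 for Kmt2a, 74.21 for Kmt2e and 79.43 for Smarcd3. Also in FL, Arid5b was high in replicate 3 (12.08 TPM) and Smarcc1 low in replicate 2 (23.28 TPM). In CUL4-5, Chd3 was high in replicate 1 (135.2 TPM), Kdm3a high in replicate 2 (31 TPM) and Kdm8 low in replicate 3 (5.718 TPM). Smarcd3 was low in CENT2 replicate 2 (60.75 TPM). In DMH replicate 2, Chd1 (19.68 TPM) and Kmt2c (30.37 TPM) were low. In NTS, Smarcb1 was high in replicate 1 (66.04 TPM) and Kdm5b low in replicate 4 (11.33 TPM).

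The difference between embryo and adult differed between hypothalamus and hindbrain, by an interaction term in edgeR, for 20 genes. The values are the difference in the hypothalamus minus that in the hindbrain, on the log2 scale. They were -1.29 for Smarca1, -0.70 for Chd1, -0.67 for Kmt2e, -0.64 for Arid5b, -0.64 for Arid4a, -0.57 for Kmt2a, -0.51 for Chd2, -0.47 for Kdm1b, -0.43 for Kdm6a, -0.39 for Kdm5b, -0.30 for Chd3, -0.27 for Arid1b and -0.265 for Kdm4c. They were 0.30 for Smarcb1, 0.31 for Kdm1a, 0.37 for Smarca4, 0.46 for Smarcd2, 0.65 for Arid3b, 0.74 for Smarcd3 and 0.90 for Kdm8. The adjusted p ran from 2.17e-07 for Smarca1 to 0.0362 for Smarcd2. Limma on log2 TPM did not call 12 of the 20, which were Arid1b, Arid3b, Arid5b, Chd1, Chd3, Kdm1a, Kdm1b, Kdm5b, Kdm6a, Kmt2e, Smarcb1 and Smarcd2. The counts of Chd1 are incomplete, and by limma its value was -0.11 (adjusted p = 0.575).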

How the results depend on the processing

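Counts, mostly of called genes and otherwise of genes by level, stayed within 1.5 times of the reported count in 202 of 219 results under the planned settings. Of 2102 results for single genes or paralogue shares, 2015 were kept. For genes this means direction and call, and for shares a shift below the SD between replicates. The genes were the called ones with the largest differences and called paralogues, so the figure does not cover all calls. Limma on log2(TPM + 0.5) kept 8 of 20 interaction calls, 20 of 34 in the adult hypothalamus and 43 of 44 in the cerebellar cortex. With limma on log2(TPM + 0.5), log2(TPM + 0.1) and log2(TPM + 0.5) without a filter, 13 genes were higher in mESC than in the embryo in each, 3, 3 and 2 were called with a positive interaction and 5 in each with a negative one, 11 were higher in the cortex in each, and 8 were lower in the hypothalamus in each. Under the last 2 of these settings 2 genes were higher in the hindbrain nuclei, where Chd5 lost its call under all 3 and Kdm8 under these 2. Under the same 3 settings Chd4 (-0.29 in each) and Kdm5c (-0.17 in each) reversed between mESC and embryo, and Smarca2 reversed in the hypothalamus (0.037 in each). The sign of the fitted difference also turned for Chd2, Kdm1a, Kmt2b, Kmt2c and Kmt2d between mESC and embryo, for Kdm1a and Kdm4c in the hypothalamus and for Kdm3a in the cortex. With long coding transcripts Chd9 reversed between embryo and adult (0.452). The cause was not tested. With each library left out, the interaction was positive for 4 to 7 genes and negative for 6 to 23. The lowest counts came without THy/PHy replicate 1 and the highest without H replicate 3. Smarce1 in the cerebellar cortex (0.113) lost its call in 39 of these fits.

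The deviations of 669 same-numbered pairs of libraries had a median correlation of 0.01 (-0.46 to 0.527), against -0.003 for 1603 pairs of different number. Of 69 libraries, 28 correlated best with their own number. No chance level was computed for this count, so it cannot decide whether replicate numbers pair some of the libraries. With the replicate block, 40 genes rose in the hypothalamus from adult to embryo in place of 39, and the other counts of called genes did not change.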
